A study of Mus musculus with 20 samples.

Results

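Cytochrome P450 enzymes of families 1 to 4 carry out most of the oxidation of drugs, pollutants, steroids and fatty acids in liver. The 62 mouse genes of these families on the array were taken as every symbol that starts with Cyp1, Cyp2, Cyp3 or Cyp4 followed by a subfamily letter and a number. Of these, 56 had a probe set that the platform annotation ties to that gene alone: 3 of family CYP1, 35 of CYP2, 5 of CYP3 and 13 of CYP4, out of 18194 genes measured. The other 6 (Cyp2a4, Cyp2a5, Cyp3a41a, Cyp3a41b, Cyp4a10 and Cyp4f37) were named only on probe sets that list several genes, and they have no value here.

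They were measured in Hepa1-6, an established mouse hepatoma line from the C57L strain that is a single transformed line and not liver tissue. All cultures, controls included, were kept in medium depleted of growth factors from 4 h before the start. Treated cultures then received 1 ng/ml TGFβ1, a cytokine that signals through SMAD transcription factors, and basal cultures received no TGFβ1, for 0, 1, 3, 6 or 10 h each. Every one of the 10 groups held 2 biological duplicates, each on its own Affymetrix array, so 20 arrays were analysed, and the labels call treated and untreated cells at 0 h equivalent.

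P450 enzymes hold a haem group and take electrons from P450 oxidoreductase or cytochrome b5 to insert an oxygen atom into their substrate. Family CYP1 is switched on by the aryl hydrocarbon receptor AHR with its partner ARNT, which bind the core motif GCGTG. Many CYP2 and CYP3A genes answer to the xenobiotic receptors CAR and PXR, and CYP4A genes to the fatty acid receptor PPARα, while liver-enriched factors such as those of the HNF, FOXA and C/EBP families keep many of them active in hepatocytes.

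The stretches just before the gene start are shown for the 4 genes whose courses carry the results, Cyp1a1, Cyp1b1, Cyp2s1 and Cyp3a13. They come from the RefSeq promoter table of the build GRCm38.p6, run 5′ to 3′ on the gene's own strand and end at the base before the start. Capitals mark a GCGTG core (written CACGC where it lies on the opposite strand) and the SMAD-type motif CAGACA. Cyp1a1 lies at chr9:57697463-57697612 on the plus strand, Cyp1b1 at chr17:79715062-79715211, Cyp2s1 at chr7:25816526-25816675 and Cyp3a13 at chr5:137921620-137921769, these 3 on the minus strand.
Cyp1a1: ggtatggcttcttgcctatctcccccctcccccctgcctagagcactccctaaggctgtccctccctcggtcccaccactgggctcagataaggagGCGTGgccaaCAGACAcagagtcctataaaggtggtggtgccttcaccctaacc
Cyp1b1: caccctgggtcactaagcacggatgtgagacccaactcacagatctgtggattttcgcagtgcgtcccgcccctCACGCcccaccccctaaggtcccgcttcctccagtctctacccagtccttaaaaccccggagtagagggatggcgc
Cyp2s1: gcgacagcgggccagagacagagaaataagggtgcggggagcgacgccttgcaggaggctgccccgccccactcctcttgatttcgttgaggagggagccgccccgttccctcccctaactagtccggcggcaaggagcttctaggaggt
Cyp3a13: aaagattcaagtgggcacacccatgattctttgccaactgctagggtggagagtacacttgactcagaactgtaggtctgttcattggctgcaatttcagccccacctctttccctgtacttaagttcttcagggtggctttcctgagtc

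Cyp1a1 held GCGTG at position -54 from its start on its own strand and CAGACA at -44. Cyp1b1 held GCGTG at -76 on the opposite strand, and a CAGACA at position 21, which is past the stretch shown. Searched on both strands of windows from 250 bases before to 50 after the start, GCGTG was found in 32.39% of 32851 windows of all genes and CAGACA in 21.04%. Of 54 windows of 48 P450 genes in that table, 12 (22.22%) held GCGTG and 9 (16.67%) held CAGACA. The SMAD palindrome GTCTAGAC (0.21% of all windows) and the DR1 motif of PPARα and HNF4α (0.04%) were found in none of the 54. Cyp2s1 and Cyp3a13 held no match of the 4 motifs in this window. Cyp4f16 held GCGTG at -224 on the opposite strand and Cyp4v3 at -16 on its own. Such matches describe letters and do not show binding.

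The deposited values are RMA log2 values, and a difference of 1 on this scale is a 2-fold difference. The table has no detection calls. A level was therefore read against 74 chemosensory receptor genes (odorant, vomeronasal and taste receptors), a class that hepatoma cells should not express, whose 95th percentile was 5.21. Since probe sets differ in how strongly they bind, a value at or below 5.21 does not show that a transcript was absent, and levels of different genes are not compared with each other.

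Most P450 genes of these families lay in the range of the receptor genes. In all 10 groups, 40 of 56 (71.4%) had a mean at or below 5.21, against 6324 of 18194 genes (34.8%). They comprised 1 of 3 in CYP1 (Cyp1a2), 26 of 35 in CYP2, 4 of 5 in CYP3 and 9 of 13 in CYP4. The measured genes of subfamilies CYP2A, CYP2E, CYP2F, CYP2G, CYP2J, CYP4A and CYP4X were all at or below it in all groups, among them Cyp2e1, known for ethanol oxidation. Of the CYP3A genes, the main drug-oxidizing subfamily, Cyp3a11, Cyp3a16, Cyp3a25 and Cyp3a44 had means over the 20 arrays under 5.21, and only Cyp3a13 lay above it.

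Genes above the reference in all 10 groups numbered 7: Cyp1a1, Cyp2b10, Cyp2r1, Cyp3a13, Cyp4b1, Cyp4f16 and Cyp4v3. Of these, Cyp2b10 and Cyp2r1 had means of 5.57 and 5.56, under the highest mean of a receptor gene (6.40). The lowest array of Cyp2b10 was at 4.86, and its other probe sets had means of 3.01 and 2.77. Another 9 were above it in some groups: Cyp1b1, Cyp2c38, Cyp2c55, Cyp2c68, Cyp2c70, Cyp2d22, Cyp2s1, Cyp2u1 and Cyp4f13. Single arrays of Cyp1a1 ran from 10.08 to 13.10, those of Cyp3a13 from 7.55 to 8.74 and those of Cyp2r1, a vitamin D hydroxylase, from 5.29 to 5.88. Cyp2c38 ran from 3.86 to 5.94, and these extremes were the duplicates of basal cells at 3 h.

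**Figure D1:**
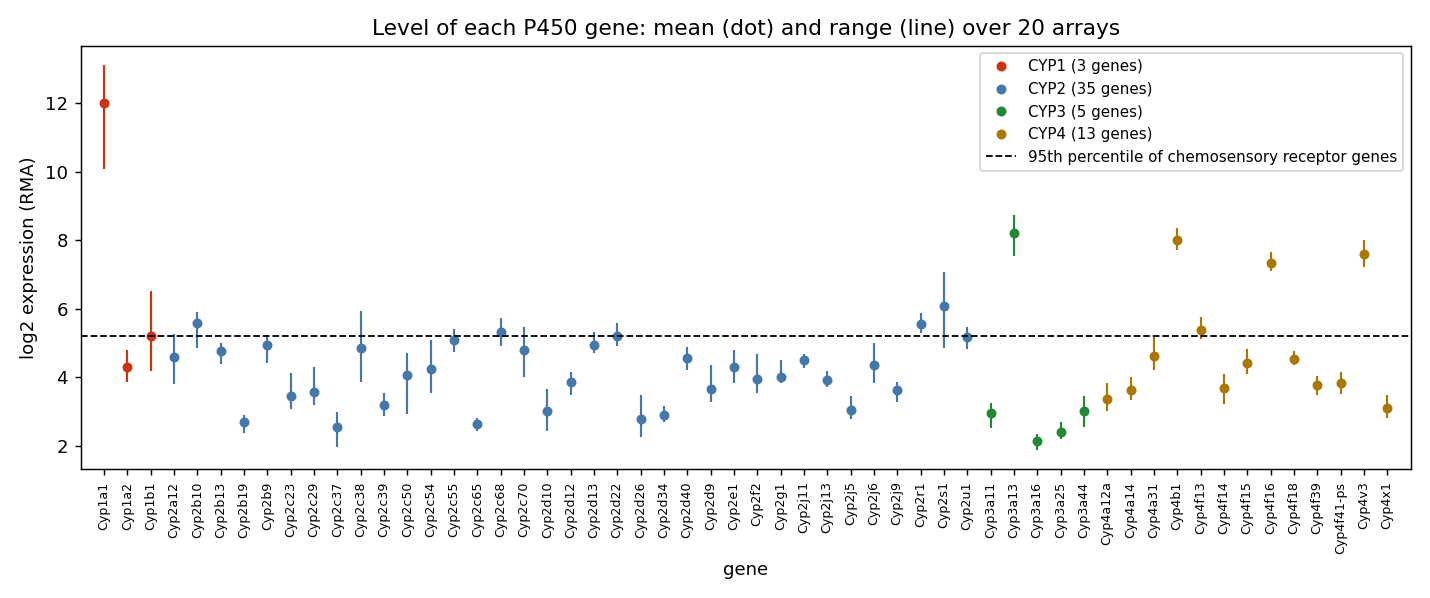
Level of each of the 56 P450 genes on the RMA log2 scale, grouped by family; dots are means over 20 arrays, lines run from the lowest to the highest array, and the dashed line is the 95th percentile of 74 chemosensory receptor genes (5.21). Cyp1a1 stands at a mean of 12.01 and spans 10.08 to 13.10, while 40 of the 56 genes had no group mean above the line.

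The line kept some hepatocyte transcripts. Of 8 measured hepatocyte markers 7 lay above the reference in at least 1 group, and Ahsg, at a mean of 4.45, did not. Alb (mean 12.01), Afp (12.78), Fgb (7.76), Apoa1 (6.32) and Ttr (5.65) were above it in all 10 groups. Tat (5.24) was above it in 7 groups and Apob (5.16) in 5. All 4 measured cholangiocyte markers (Krt7, Krt19, Sox9, Epcam) were above it in all 10 groups. All 5 macrophage markers and 4 of 5 stellate cell markers were above it in at least 1 group, but many only barely. Clec4f, Cd5l and Acta2 passed in 2 of the 10 groups and Col1a1 in 3, each with a mean over the 20 arrays under 5.21. Csf1r (macrophage) and Des (stellate) passed in all 10. Lrat, a defining stellate gene, was not above the reference in any group. Of the endothelial markers 1 of 5 (Kdr) was above it, with Pecam1, Stab2, Cdh5 and Tek below, and 0 of 4 leukocyte markers were. At 6 h, 3 of the 4 cholangiocyte, 3 of the 8 hepatocyte and 2 of the 5 stellate cell markers were called between treated and basal cells, and 0 of the macrophage, endothelial and leukocyte markers, beside 15.7% of all genes. The log2 of the summed cholangiocyte markers was between 11.16 and 11.24 in basal groups and between 11.58 and 11.82 in treated groups from 1 h on, and that of the hepatocyte markers between 13.54 and 13.79 and between 13.26 and 13.41. These sums of linear values follow mainly the brightest probe sets, Krt7 (mean 10.24) and Epcam (9.94) in the first and Afp and Alb in the second. Since Hepa1-6 is a single line, the markers of all types are read as transcripts of that line and not as counts of cell types. Their part in the P450 differences was not tested, and bulk RNA cannot tell a change in all cells of the line from a change in some of them.

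At 0 h, treated and basal cells differed in 0 of the 56 genes by limma (adjusted p under 0.05; 0 also at an unadjusted p under 0.05), against a background of 0% of all genes, where 740 (4.07%) passed the unadjusted threshold. After 1 h the count was again 0 of 56, and 0 unadjusted, against a background of 2.24% of all genes called. At 3 h, 4 P450 genes were lower in treated cells and 0 higher; the background was 15.3% of all genes called, 6.73% higher and 8.55% lower. At 6 h, 4 were lower and 2 higher, with a background of 15.7% (7.96% lower and 7.77% higher). At 10 h, 2 were lower and 0 higher, with a background of 9.13% (4.06% lower and 5.07% higher). Without replicate 1 of the basal arrays the 6 calls at 6 h became 3, and without any 1 array the 2 calls at 10 h became 1. The shares of all 56 P450 genes called (7.14%, 10.7% and 3.57% at 3, 6 and 10 h) were below these backgrounds. Of the 56, 71.4% were at or below the reference in all groups, against 34.8% of all genes. With only genes of a mean above the reference fitted, 4, 6 and 2 of 11 P450 genes were called at 3, 6 and 10 h. That fit kept 62.2% of all genes and called 2942, 3080 and 1864 of them. There the P450 shares were not below those of all genes, but they rest on few calls and their distance was not tested. The 40 genes at or below the reference gave 0 calls at every one of these times, with 2, 1 and 3 at an unadjusted p under 0.05 at 3, 6 and 10 h. A gene that crossed the reference because it changed is not among these 40, so this count is no comparison of dim with bright genes.

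The medians of the P450 genes were close to those of all genes. Their median log2 difference of treated minus basal cells was -0.01, -0.03, -0.05 and -0.05 at 1, 3, 6 and 10 h, beside -0.01, -0.02, -0.03 and -0.00 for all genes. In all, 8 genes (14.3%) were called at 1 or more of these times, against 4592 of all genes (25.2%). In none of the 17 comparisons made were 43 of 56 (76.8%) called, against 9626 of all genes (52.9%). Both counts include the genes at or below the reference in all groups, 71.4% of the P450 genes and 34.8% of all genes.

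Cyp1a1, the main AHR-induced enzyme that oxidizes polycyclic aromatic hydrocarbons, had the largest TGFβ1 difference of the family members and then lost it. In basal duplicates its log2 values were 13.09 and 12.95 at 0 h, 12.86 and 12.60 at 1 h, 12.31 and 12.07 at 3 h, 11.95 and 11.73 at 6 h, and 11.50 and 11.69 at 10 h. In treated duplicates they were 13.10 and 13.09, 12.75 and 12.54, 11.04 and 11.05, 10.36 and 10.08, and 11.64 and 11.70 at the same times. Both treated arrays lay more than 1 log2 unit below both basal arrays at 3 h and at 6 h. At 0, 1 and 10 h the ranges of the duplicates overlapped or touched.

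The difference of treated minus basal cells in Cyp1a1 was -1.14 ± 0.10 (SE) at 3 h, 2.21-fold lower (limma, adjusted p = 2.94e-08). At 6 h it was -1.62 ± 0.10, 3.07-fold lower (limma, adjusted p = 1.74e-10), which ranked 9 from the lowest among 18194 genes. Both calls were kept when any 1 of the arrays compared was left out. At 1 h the difference was -0.09 (95% interval -0.30 to 0.12, adjusted p = 0.899), and at 10 h it was 0.08 (95% interval -0.13 to 0.29, adjusted p = 0.786).

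The treated-minus-basal difference of Cyp1a1 itself changed between times. It dropped by 1.05 ± 0.14 from 1 h to 3 h (limma, adjusted p = 4.05e-05), where 2 of the 56 genes (Cyp1a1 and Cyp2d22) were called lower against a background of 3.94% of all genes lower and 6.41% called in all. From 3 h to 6 h it moved by -0.48 ± 0.14, which missed the threshold (adjusted p = 0.0637); 0 of 56 were called there, with 8 at an unadjusted p under 0.05 and a background of 4.55%. From 6 h to 10 h it increased by 1.69 ± 0.14 (limma, adjusted p = 7.27e-07), and of the 56 genes only Cyp1a1 was called, against a background of 1.11% of all genes higher and 2.44% called in all. That increase ranked 1 from the highest among all 18194 genes in this fit.

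Cyp1a1 also declined in cells without TGFβ1. Against basal cells at 0 h, basal cells were lower by a log2 difference of -0.84 ± 0.10 at 3 h, -1.19 ± 0.10 at 6 h and -1.43 ± 0.10 at 10 h (limma, adjusted p = 1.72e-05, 4.49e-08 and 1.53e-09). Against treated cells at 0 h, treated cells stood at -2.05 ± 0.10 at 3 h, -2.88 ± 0.10 at 6 h and -1.43 ± 0.10 at 10 h (adjusted p = 3.20e-12, 1.93e-14 and 9.40e-10). The value at 6 h is a 7.35-fold lower level and ranked 1 from the lowest among 18194 genes. At 1 h the treated difference was -0.45 ± 0.10 (limma, adjusted p = 0.0105); it was not called without either treated array at 0 h or without replicate 2 of treated cells at 1 h, where the adjusted p reached 0.160, nor without the variance trend (0.0952). Both courses stood at -1.43 at 10 h, each against 0 h arrays of its own.

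**Figure D2:**
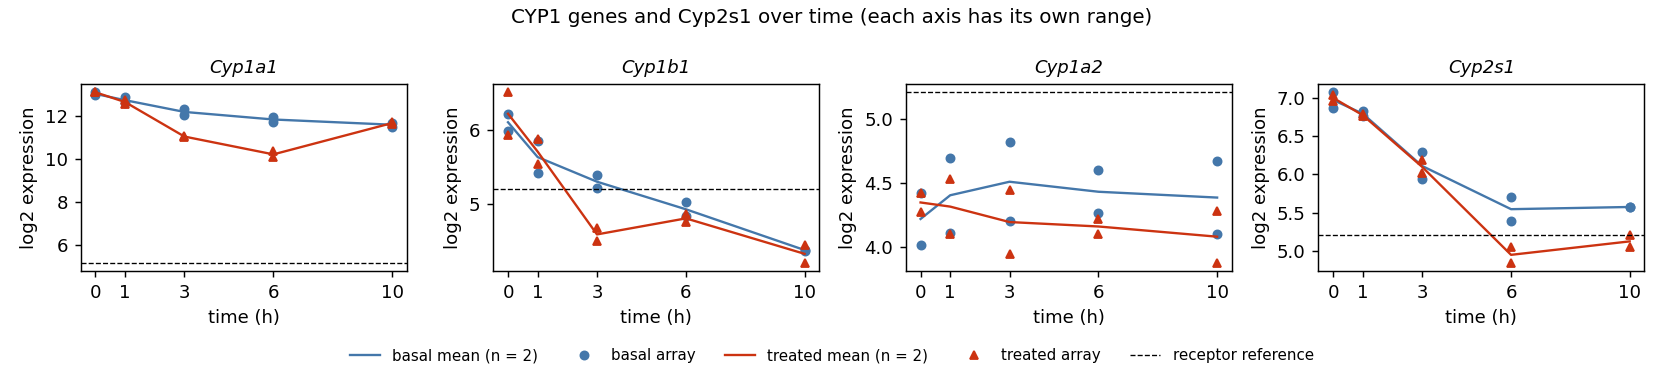
RMA log2 expression against time in h for Cyp1a1, Cyp1b1, Cyp1a2 and Cyp2s1; each dot (basal) or triangle (treated with TGFβ1) is 1 array, lines join the means of 2 arrays, the dashed line is the receptor reference (5.21), and each panel has its own vertical range. Treated Cyp1a1 falls to 10.36 and 10.08 at 6 h and stands at 11.64 and 11.70 at 10 h, beside 11.50 and 11.69 in basal cells.

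Cyp1b1, which oxidizes estradiol and procarcinogens, fell over time in both courses and was lower with TGFβ1 at 3 h. Basal arrays were at 6.00 and 6.22 at 0 h, 5.85 and 5.42 at 1 h, 5.21 and 5.39 at 3 h, 4.83 and 5.02 at 6 h, and 4.37 and 4.38 at 10 h. Treated arrays were at 5.93 and 6.52, 5.88 and 5.54, 4.68 and 4.49, 4.75 and 4.86, and 4.44 and 4.20. The groups did not overlap at 3 h and overlapped at the other times, and from 6 h on all arrays were below the reference of 5.21, where RMA compresses differences.

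At 3 h the difference of Cyp1b1 was -0.72 ± 0.18 (limma, adjusted p = 0.00925), 1.64-fold lower. The call was lost without replicate 2 of the treated arrays (adjusted p = 0.0954) or replicate 2 of the basal arrays at 3 h (0.0939), and with the mean of its probe sets in place of the brightest one (-0.31, adjusted p = 0.120). Its other 2 probe sets gave -0.09 and -0.11 at 3 h. The later differences were -0.12 at 6 h and -0.05 at 10 h (95% intervals -0.51 to 0.26 and -0.44 to 0.33). Over 10 h Cyp1b1 fell, with log2 differences of -1.74 ± 0.18 in basal cells and -1.90 ± 0.18 in treated cells (limma, adjusted p = 3.65e-07 and 7.73e-08). Of its other probe sets, 1 gave -1.87 in basal cells over 10 h and the remaining one 0.24; the mean of its probe sets gave -1.12 in basal and -0.99 in treated cells.

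Cyp1a2, the constitutive liver enzyme of the family, stayed below the reference in all arrays (3.88 to 4.81). Its differences were -0.09, -0.31, -0.27 and -0.31 at 1, 3, 6 and 10 h, with standard errors of 0.25 and no call (limma, adjusted p = 0.510 or higher).

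Cyp2s1, a CYP2 enzyme that is also known as AHR-inducible and acts on retinoids and lipid peroxides, differed with TGFβ1 at 6 and 10 h. Its basal arrays read 7.07 and 6.87 at 0 h, 6.75 and 6.83 at 1 h, 6.28 and 5.93 at 3 h, 5.70 and 5.39 at 6 h, and 5.58 and 5.57 at 10 h. Its treated arrays read 6.96 and 7.03, 6.78 and 6.76, 6.18 and 6.01, 5.05 and 4.85, and 5.05 and 5.21. The duplicates overlapped up to 3 h, and both treated arrays were lower than both basal arrays at 6 and 10 h, where the treated means were below the reference.

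The treated-minus-basal difference of Cyp2s1 was -0.01 ± 0.13 at 3 h and -0.59 ± 0.13 at 6 h (limma, adjusted p = 0.978 and 0.00328). The 6 h call was lost without replicate 2 of the treated arrays (adjusted p = 0.0580) or replicate 1 of the basal arrays (0.0747). At 10 h it was -0.45 ± 0.13 (limma, adjusted p = 0.0400), a call lost without any 1 of the 4 arrays (adjusted p between 0.0715 and 0.284), with a further quantile normalization (0.0516) or without the variance trend (0.0551). The change of the difference from 3 h to 6 h, -0.58 ± 0.19, was not called (adjusted p = 0.0948). Over 10 h the gene fell, with log2 differences of -1.39 ± 0.13 in basal cells and -1.87 ± 0.13 in treated cells (adjusted p = 9.87e-08 and 1.25e-09), and its basal difference of -1.42 at 6 h ranked 7 from the lowest among all genes.

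Cyp3a13, a drug-oxidizing CYP3A enzyme, was lower with TGFβ1 at 3, 6 and 10 h, and was the only P450 gene called at all 3 times. Its basal arrays were at 8.34 and 8.13 at 0 h, 8.49 and 8.10 at 1 h, 8.40 and 8.28 at 3 h, 8.39 and 8.09 at 6 h, and 8.74 and 8.71 at 10 h. Its treated arrays were at 8.32 and 8.39, 8.20 and 8.25, 7.91 and 7.89, 7.55 and 7.75, and 8.05 and 8.17. From 3 h on both treated arrays lay below both basal arrays, and before that they overlapped.

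The difference of Cyp3a13 was -0.44 ± 0.11 at 3 h, -0.59 ± 0.11 at 6 h and -0.61 ± 0.11 at 10 h (limma, adjusted p = 0.00803, 5.78e-04 and 8.02e-04). The 3 h call was lost without replicate 2 of the treated arrays (adjusted p = 0.0538) or replicate 1 of the basal arrays (0.0896), while those at 6 and 10 h were kept without any 1 array. Against 0 h, Cyp3a13 was called at 3 and 6 h in treated cells and at 10 h in basal cells. Treated cells were at -0.70 ± 0.11 from their 0 h level at 6 h (adjusted p = 5.47e-05), and basal cells rose by 0.49 ± 0.11 over 10 h (adjusted p = 0.00196). The change of the treated-minus-basal difference from 1 h to 10 h was -0.55 ± 0.16 and missed the threshold (adjusted p = 0.0551); at that comparison 0 of 56 genes were called, 5 at an unadjusted p under 0.05, with a background of 4.02%.

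Cyp2d22, a mouse CYP2D enzyme, had group means on both sides of the reference. Basal arrays were at 5.05 and 4.90 at 0 h, 4.94 and 5.02 at 1 h, 5.44 and 5.58 at 3 h, 5.52 and 5.38 at 6 h, and 5.36 and 5.37 at 10 h. Treated arrays were at 5.21 and 5.26, 5.03 and 5.36, 4.91 and 5.04, 5.24 and 5.25, and 5.19 and 5.12. Basal arrays were higher from 3 h on than before, and treated arrays were below basal ones from 3 h on and above them at 0 and 1 h.

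The difference of Cyp2d22 at 3 h was -0.53 ± 0.13 (limma, adjusted p = 0.00650); it was lost without replicate 1 of the treated arrays (adjusted p = 0.0727) or replicate 2 of the basal arrays (0.0827). Its second probe set gave -0.32 at 3 h. From 1 h to 3 h the difference dropped by 0.75 ± 0.19 (limma, adjusted p = 0.0152). That call was lost without replicate 2 of treated cells at 1 h (adjusted p = 0.0970), replicate 1 of treated cells at 3 h (0.0690), replicate 1 of basal cells at 1 h (0.0516) or replicate 2 of basal cells at 3 h (0.0775), with the mean of its probe sets (0.133) and with only the arrays compared (0.0726). Cyp2d22 rose by 0.39 ± 0.13 over 10 h in basal cells (adjusted p = 0.0321), a call lost without any 1 of the 4 arrays (adjusted p up to 0.216), with the mean of its probe sets (0.312), with a further quantile normalization (0.0805) and with all 4 arrays of 0 h as the baseline (0.120).

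The other CYP2 genes gave no call between treated and basal cells. Cyp2c70, a bile acid hydroxylase of the mouse, had the largest such difference at 3 h, 0.78 ± 0.29, which missed the threshold (limma, adjusted p = 0.0740); it was singled out after its values were seen. Its treated arrays at 3 h were at 5.09 and 5.44 and its basal arrays at 4.62 and 4.35, but basal arrays at 6 h stood at 5.47 and 4.62. Cyp2j6, of a subfamily that makes epoxides of polyunsaturated fatty acids, was at 3.94 and 4.28 in treated cells at 0 h and at 5.00 and 4.98 at 10 h, all below the reference. That rise was 0.88 ± 0.19 (limma, adjusted p = 0.00107), and 0.58 with the mean of its probe sets. Basal arrays at 10 h were at 4.55 and 4.51, and the difference between the courses at 10 h, 0.46 ± 0.19, was not called (adjusted p = 0.169). Its second probe set gave -0.17 there. Cyp2d9, a steroid hydroxylase, was lower in basal cells at 10 h than at 0 h by a log2 difference of -0.66 ± 0.20 (adjusted p = 0.0195), which depended on single arrays: its 0 h arrays were at 4.37 and 3.63, its 10 h arrays at 3.40 and 3.28, and without the first the difference was -0.29 (adjusted p = 0.419). Without the second 0 h array it was -1.03, and the call was also lost without either 10 h array (adjusted p = 0.0574 and 0.115).

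In family CYP4, whose enzymes oxidize the ends of fatty acids and eicosanoids, 3 genes were called at 6 h, 1 lower and 2 higher. Cyp4b1, which also activates furan toxins, was at 8.08 and 7.88 in basal and 7.71 and 7.73 in treated arrays at 6 h. The difference of Cyp4b1 was -0.26 ± 0.09 (limma, adjusted p = 0.0449), and it was lost without any array but replicate 2 of the basal cells (adjusted p between 0.134 and 0.371). It was also lost with arrays centred on their medians (adjusted p = 0.0509), with only the arrays compared (0.0982), without the variance trend (0.0806) and with array weights (0.0526). Both courses of Cyp4b1 declined over 10 h, from 8.23 and 8.32 to 7.74 and 7.93 in basal cells and from 8.19 and 8.37 to 7.75 and 7.81 in treated cells. These declines were -0.44 ± 0.09 and -0.50 ± 0.09 (limma, adjusted p = 5.33e-04 and 1.21e-04).

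Cyp4f16, of the subfamily known for leukotriene hydroxylation, was at 7.28 and 7.29 in basal and 7.50 and 7.62 in treated arrays at 6 h. The groups of Cyp4f16 did not overlap at 3, 6 or 10 h, with treated arrays higher, nor at 0 h, with treated arrays (7.09 and 7.15) below basal ones (7.37 and 7.18). The differences were 0.24 ± 0.08 at 3 h, 0.27 ± 0.08 at 6 h and 0.18 ± 0.08 at 10 h (limma, adjusted p = 0.0531, 0.0270 and 0.236). The 6 h call of Cyp4f16 was lost without replicate 2 of the treated arrays (adjusted p = 0.225) or without replicate 1 or 2 of the basal arrays (0.101 each), with the mean of its probe sets (0.0531) and with only the arrays compared (0.0879). A second probe set gave 0.28 at 6 h. Treated cells rose from their 0 h values to 7.58 and 7.65 at 10 h, by 0.49 ± 0.08 (adjusted p = 8.31e-05).

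Cyp4v3, a fatty acid hydroxylase whose human counterpart is mutated in a crystalline retinal dystrophy, was at 7.70 and 7.59 in basal and 8.00 and 7.99 in treated arrays at 6 h. The difference of Cyp4v3 was 0.35 ± 0.09 (limma, adjusted p = 0.00624), lost without replicate 2 of the basal arrays (adjusted p = 0.0792), and its second probe set gave 0.38. That second probe set also gave 0.40 at 0 h, before any time under TGFβ1, so its 6 h value does not separate an effect of treatment. The probe set used gave 0.08 at 0 h. At 10 h basal arrays were at 7.78 and 7.86 and treated arrays at 7.97 and 7.92, a difference of 0.12 ± 0.09 that was not called (adjusted p = 0.496). Over 10 h Cyp4v3 rose by 0.55 ± 0.09 in basal and by 0.59 ± 0.09 in treated cells (adjusted p = 4.76e-05 and 1.48e-05). Cyp4f13, of the same subfamily as Cyp4f16, was at 5.24 and 5.26 in basal cells at 0 h and at 5.71 and 5.57 at 10 h, 0.39 ± 0.13 higher (adjusted p = 0.0288); the call was lost without either 0 h array or replicate 1 at 10 h (adjusted p up to 0.209) and with a further quantile normalization (0.0568).

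**Figure D3:**
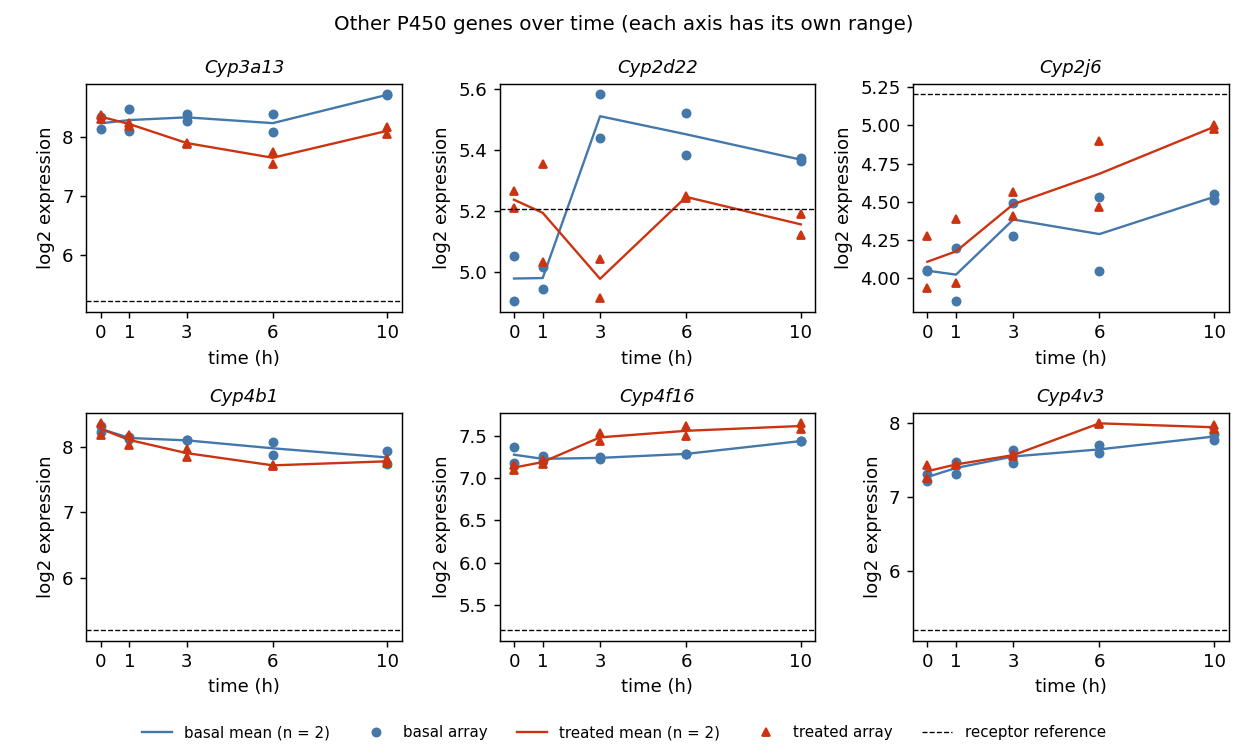
RMA log2 expression against time in h for Cyp3a13, Cyp2d22, Cyp2j6, Cyp4b1, Cyp4f16 and Cyp4v3, drawn as for Cyp1a1, with 1 dot or triangle per array, lines through the means of 2 arrays and the receptor reference (5.21) dashed. Both treated arrays of Cyp3a13 lie below both basal arrays from 3 h on, and Cyp2j6 stays below the reference throughout.

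Across time without TGFβ1, 0 of the 56 genes were called at 1 h (4 at an unadjusted p under 0.05; background 0.187%). Called against 0 h were 5 genes at 3 h (background 8.16%), 6 at 6 h (20.7%) and 9 at 10 h (26.1%; 4 higher and 5 lower, with 13.3% of all genes higher and 12.8% lower). In treated cells against treated cells at 0 h, 1 was called at 1 h (background 3.51%), 7 at 3 h (15.8%), 9 at 6 h (24%) and 7 at 10 h (28%; 3 higher and 4 lower, with 14.4% and 13.6% of all genes). The 9 basal and 7 treated calls at 10 h are 16.1% and 12.5% of the 56 genes, below both backgrounds. The 4 higher in basal cells at 10 h were Cyp2d22, Cyp3a13, Cyp4f13 and Cyp4v3, and the 5 lower were Cyp1a1, Cyp1b1, Cyp2d9, Cyp2s1 and Cyp4b1. In treated cells Cyp2j6, Cyp4f16 and Cyp4v3 were higher and Cyp1a1, Cyp1b1, Cyp2s1 and Cyp4b1 lower. Basal and treated courses have separate 0 h arrays. With only genes above the reference fitted, 8 of 11 P450 genes were called in basal and 5 of 11 in treated cells at 10 h. In that fit 4916 and 5211 of all genes were called.

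**Figure D4:**
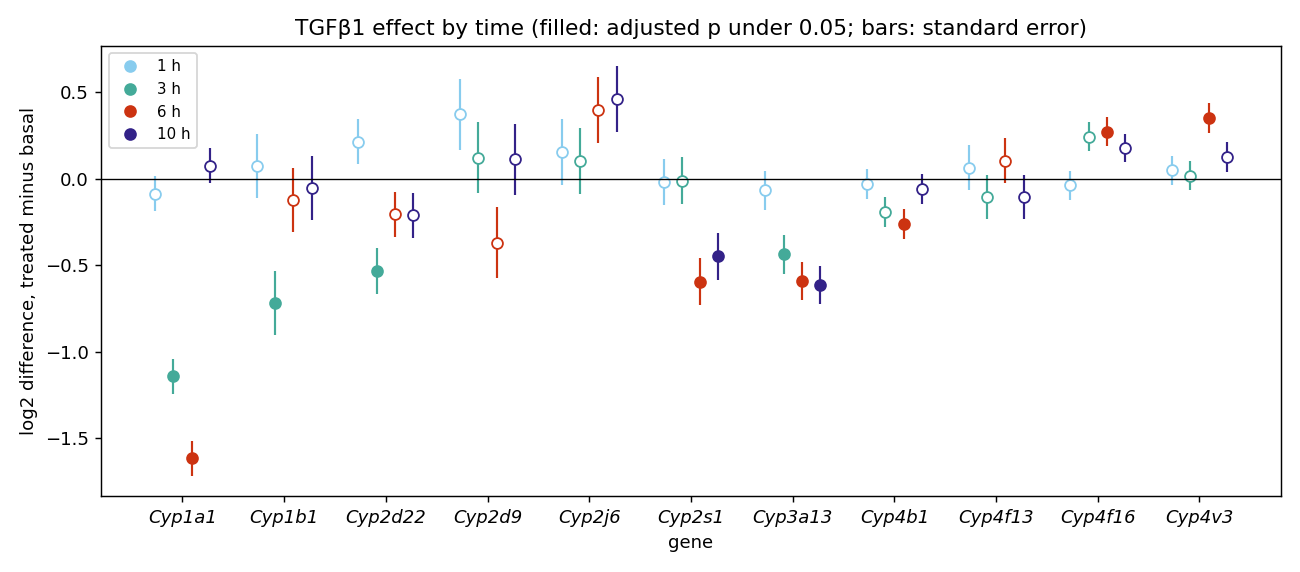
Treated-minus-basal log2 difference (vertical axis, with its standard error as a bar) of 11 P450 genes at 1, 3, 6 and 10 h; filled dots passed an adjusted p of 0.05 in limma and open dots did not. Cyp1a1 reaches -1.62 at 6 h and 0.08 at 10 h, whereas Cyp3a13 stands at -0.59 and -0.61 at these times.

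The regulators and partners of these enzymes were read from lists of genes named for their roles, as counts and shares beside those of all genes. Of 9 measured genes of the AHR pathway, 1 was higher and 1 lower with TGFβ1 at 1 h, 2 and 2 at 3 h, 1 and 0 at 6 h, and 1 and 1 at 10 h. These are 22.2%, 44.4%, 11.1% and 22.2%, beside 2.24%, 15.3%, 15.7% and 9.13% of all genes. With 9 genes each share rests on few calls, and its distance from the background was not tested. Tiparp, an AHR target that represses AHR, was higher by 1.00 ± 0.07 at 1 h and by 0.41 ± 0.07 at 3 h (limma, adjusted p = 5.52e-09 and 3.60e-04) and differed by 0.0032 at 6 h. Its means at 0, 1 and 3 h were 9.55, 9.03 and 8.63 in basal and 9.53, 10.03 and 9.04 in treated cells. Both differences thus include a decline of basal cells, and treated cells at 3 h stood below their own 0 h mean. Ahr itself was higher by 0.49 ± 0.05 at 6 h and 0.47 ± 0.05 at 10 h (adjusted p = 1.40e-07 and 7.02e-07), and by 0.29 at 6 h with the mean of its probe sets. At 3 h Ahr was called at 0.15 ± 0.05 (adjusted p = 0.0373), which was lost without any 1 array and was 0.01 with the mean of its probe sets. Nqo1, a quinone reductase under AHR and NRF2, was lower by a log2 difference of -0.56 ± 0.06 at 10 h (adjusted p = 1.60e-06). Nfe2l2, which encodes NRF2, was at -0.40 ± 0.04 at 3 h (adjusted p = 1.69e-07). The differences of Arnt, between -0.06 and 0.13, were not called, and Ahrr and Aldh3a1, both AHR targets, lay below the reference in all groups.

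Of 21 measured nuclear receptors and hepatocyte factors, 3 were higher and 1 lower at 1 h, 1 and 3 at 3 h, 1 and 5 at 6 h, and 2 and 3 at 10 h. These are 19.0%, 19.0%, 28.6% and 23.8%, beside 2.24%, 15.3%, 15.7% and 9.13% of all genes. Foxa2, a pioneer factor of liver genes, was at -0.49 ± 0.06, -1.28 ± 0.06 and -0.55 ± 0.06 at 1, 3 and 6 h (limma, adjusted p = 1.01e-05, 1.49e-12 and 7.18e-07). Its call at 10 h, at -0.23 ± 0.06 (adjusted p = 0.0161), was lost without any 1 array (adjusted p up to 0.0961) and without the variance trend (0.0543). Foxa1 and Foxa3 were higher at 1 h by 0.88 ± 0.05 and 0.78 ± 0.07 (adjusted p = 2.91e-10 and 4.43e-08), and Foxa3 was lower at 10 h, at -0.35 ± 0.07 (adjusted p = 0.00113). Cebpb was higher at 1, 3 and 6 h (0.76, 0.56 and 0.29, each ± 0.05; adjusted p = 3.96e-04 or lower). Dbp, a clock-controlled activator of P450 genes, was at -1.04, -1.01 and -0.87 at 3, 6 and 10 h (each ± 0.14; adjusted p = 1.90e-04 or lower). Nr3c1, the glucocorticoid receptor, was at -0.78 ± 0.06 at 3 h (adjusted p = 1.06e-08), and at -0.43 with the mean of its probe sets. The genes of PXR and CAR, Nr1i2 and Nr1i3, were at or below the reference in all groups, while Ppara, Hnf4a and Rxra were above it in all 10 and were not called between treated and basal cells at any of these times.

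Of 15 measured genes of electron supply and haem synthesis, 0 were called at 1 h (2 at an unadjusted p under 0.05), 3 were higher and 3 lower at 3 h, 1 and 6 at 6 h, and 1 and 3 at 10 h. The shares at 3, 6 and 10 h are 40.0%, 46.7% and 26.7%, beside 15.3%, 15.7% and 9.13% of all genes. Cyb5b, an outer mitochondrial membrane cytochrome b5, was lower at -0.31 ± 0.04, -0.51 ± 0.04 and -0.27 ± 0.04 at 3, 6 and 10 h (limma, adjusted p = 1.48e-05, 1.82e-08 and 2.35e-04). Cyb5a, the microsomal electron donor, was at -0.26 ± 0.05 and -0.39 ± 0.05 at 3 and 6 h (adjusted p = 0.00102 and 1.16e-05). Cyb5r3, the reductase of cytochrome b5, was higher by 0.27 ± 0.06 and 0.31 ± 0.06 at these times (adjusted p = 0.00132 and 3.90e-04), and by 0.20 at 6 h with the mean of its probe sets. Alas1, the first enzyme of haem synthesis, was called at 6 h at -0.20 ± 0.06 (adjusted p = 0.0366), but not without any 1 array, and was at 0.049 with the mean of its probe sets. Por, the general P450 reductase, had no probe set of its own.

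P450 genes outside families 1 to 4 were counted in the same way. Of 19 measured, 0 were called at 1 h (3 at an unadjusted p under 0.05), 0 were higher and 2 lower at 3 h, 0 and 1 at 6 h, and 1 and 0 at 10 h. These are 10.5%, 5.26% and 5.26% at 3, 6 and 10 h, beside 15.3%, 15.7% and 9.13% of all genes. With 19 genes each share rests on 1 or 2 calls, too few to set it apart from the background. Cyp7b1, an oxysterol hydroxylase, was at -0.41 ± 0.07 at 6 h (limma, adjusted p = 3.08e-04), and at -0.27 with the mean of its probe sets. Cyp21a1, a steroid hydroxylase, was higher by 0.42 ± 0.09 at 10 h (adjusted p = 0.00448).

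PPARα targets outside the P450 genes were listed beside CYP4A, whose 3 measured genes were at or below the reference. Of 16 such targets 1 was higher and 1 lower at 1 h, 1 and 6 at 3 h, 3 and 4 at 6 h, and 3 and 2 at 10 h. These are 12.5%, 43.8%, 43.8% and 31.2%, beside 2.24%, 15.3%, 15.7% and 9.13% of all genes. Pdk4, a kinase that limits glucose oxidation, was at -0.56, -1.28, -0.64 and -0.40 at 1, 3, 6 and 10 h (each ± 0.08; limma, adjusted p = 0.00225 or lower). Vnn1, a pantetheinase, was at -0.52, -0.75 and -0.93 at 3, 6 and 10 h (each ± 0.06; adjusted p = 9.75e-07 or lower). Plin2, a lipid droplet coat protein, moved the other way, by 0.27, 0.49 and 0.39 at these times (each ± 0.05; adjusted p = 2.10e-04 or lower).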

How the data were processed

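The authors deposited 1 table of log2 expression values per probe set and array, made with RMA per the submitters' processing notes; its version, the chip description file and the build were not stated there or in the labels. RMA sets the single-probe values of all arrays to the same quantiles before they are summarized per probe set, and it compresses dim values. The array medians of the probe set values still ran from 5.15 to 5.21. Of 45037 probe sets, 34945 name 1 gene, 932 several and 9160 none; the last 2 kinds were left out. For each of 18194 genes, the probe set of highest mean over all arrays was used. The members and all gene lists were chosen with earlier results of these data known.

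All 20 arrays entered 1 limma 3.58.1 model in R 4.3.3, with a mean for each group, 10 residual degrees of freedom and eBayes with a trend, with Benjamini-Hochberg adjustment over all genes of a comparison and a threshold of 0.05. Values after ± are standard errors of log2 differences. Genes were named, with each array's value, where they were called between treated and basal cells at 1, 3, 6 or 10 h or in either course at 10 h against 0 h; list genes were named from those called between treated and basal cells. Tested on simulated data at 6 h over 18194 genes, 53% of 100 genes changed by 0.5 (log2) and 95% of 100 changed by 1 were recovered, with 6 false calls. The changed genes were drawn from all genes and no others were changed, whereas 15.7% of all genes were called at 6 h in the data. These shares check the fit and do not give the recovery of P450 genes here. Duplicates correlated at 0.9958 to 0.9971. The number of arrays, 2 per group, limits the precision. Alternatives changed normalization, centring, probe sets, low-value filters, the arrays fitted, variances, weights, the 0 h baseline and a replicate block, and left out each array.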

Additional observations from a re-analysis of the deposited data

Results flagged for a closer look

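Differences between treated and basal cells that themselves differed between times, by limma's test of the change over all genes, were found for 2 of 56 P450 genes; of all genes, 6.41% changed in this way from 1 h to 3 h and 2.44% from 6 h to 10 h. For Cyp1a1 the log2 difference of treated minus basal cells changed by -1.05 ± 0.14 from 1 h to 3 h (adjusted p = 4.05e-05) and by 1.69 ± 0.14 from 6 h to 10 h (adjusted p = 7.27e-07). For Cyp2d22 it changed by -0.75 ± 0.19 from 1 h to 3 h (adjusted p = 0.0152). The Cyp2d22 call was lost when 1 of 4 of the 8 arrays compared was left out (adjusted p between 0.0516 and 0.0970), with the mean of its probe sets (-0.51, adjusted p = 0.133) and with only the arrays compared (adjusted p = 0.0726).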

How the results depend on the processing

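The number of P450 genes called between treated and basal cells stayed within 1.5 times of the reported one at 1 h and 3 h under all alternatives, and at 6 h under all but 1: without single arrays it was 0 at 1 h, 3 at 3 h and 3 to 5 at 6 h, with 3 of 6 left without basal replicate 1. At 10 h it was 1 in place of 2 with a further quantile normalization, with only genes above the median of all genes, without the variance trend and without any 1 array. The change of the difference from 1 h to 10 h gave 1 call in place of 0 with genes above the receptor reference or above the median of all genes, and with array weights; without single arrays it gave 0 to 1. Basal cells at 10 h against 0 h gave 4 calls in place of 9 among genes above that median, 14 with only the arrays compared, and 7 to 8 without single arrays. Treated cells gave 4 in place of 7 above that median and 7 without any 1 array. At 3 h, 1 P450 gene was called higher in place of 0 with a further quantile normalization, with arrays centred on their medians and without the variance trend. The same held with only the arrays compared, and with genes above the receptor reference or above the median of all genes. The cause of these shifts was not tested, except that the median filter leaves 5 P450 genes. Replicate numbers did not pair the samples (deviations of same-numbered arrays correlated between -0.20 and 0.21 over 45 pairs of groups); with the replicate number as a block the counts were 0, 4, 6 and 2 at 1, 3, 6 and 10 h, 9 and 7 over time, and 1 for the change from 1 h to 10 h.

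Over the 59 calls of single P450 genes, 60 of 248 repeats without 1 array and 26 of 537 other repeats fell short of the threshold, and 0 changed sign. Genes that a low-value filter removed were not counted as repeats. The mean of the probe sets can alter the values of only the 11 P450 genes that have several. These counts therefore do not give a rate at which calls fail. Of the partner genes 1 changed sign, Alas1 at 6 h, from -0.20 to 0.049 with the mean of its probe sets. RMA compresses differences of genes at or below the receptor reference.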
